A study of Mus musculus with 12 samples.

Results

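The collagen genes were followed in bulk mRNA sequencing of CD11b-positive cells that were isolated with magnetic beads from the mouse cerebral cortex after papain digestion. A gene was taken as a member where it was protein-coding and its symbol read Col, a number, the letter a and a number. By this rule 45 of the 55227 genes with a symbol matched. Of these, 34 reached 10 counts in 3 or more of the 12 libraries, and 33 of the 34 encode a collagen chain. The other match, Col4a3bp, encodes the ceramide transfer protein and is described apart. All 33 collagen genes were among the 15425 genes tested, and the 11 members under the floor were Col6a4, Col6a5, Col9a1, Col10a1, Col11a1, Col13a1, Col19a1, Col22a1, Col24a1, Col26a1 and Col28a1.

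Male WT mice and male App NL-G-F mice, which carry a humanised App knock-in with the Swedish, Iberian and Arctic mutations and deposit amyloid, were injected intravenously with PBS (veh) or with a recombinant human (rh) chaperone domain, Bri2 BRICHOS, in its R221E form at 10 mg/kg. Every group had 24 injections over 12 weeks from the age of 9 months and was sampled 4 weeks after the treatment ended. Each of the 4 groups, WT veh, WT BRICHOS, App veh and App BRICHOS, held 3 libraries from 3 mice, numbered as replicates 1 to 3. The knock-in is present in all cells of the animal, so that a strain difference in the isolate is not tied to 1 cell type.

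Collagens are secreted or membrane proteins whose chains wind into triple helices. Fibrillar collagens give tissues tensile strength, collagen IV forms the sheet of basement membranes around vessels, collagen VI makes beaded filaments next to cells, and other chains decorate fibrils, form short-chain networks or span the membrane. In the brain, most collagen is known from the vessel wall, the meninges and the stroma of the choroid plexus, with little from microglia. The chains are hydroxylated and folded in the endoplasmic reticulum and cross-linked outside the cell by lysyl oxidases.

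Sequence windows are shown for the genes with the 2 highest levels and the gene with the largest fall with veh, all lower in App in both strain comparisons. They are the 250 bases before the RefSeq start of Col27a1, Col15a1 and Col6a3 (GRCm38.p6), read 5′ to 3′ on the gene's own strand, and capitals mark GAGGAA, a purine-rich core of the type bound by the myeloid factor PU.1, and GGGCGG, a GC box. The Col27a1 window is chr4:63215162-63215411, plus strand, and lies in an intron of the longer GENCODE gene, whose 5′ end is 1408 bases from this start. The Col15a1 window is chr4:47207762-47208011, plus strand, and the Col6a3 window is chr1:90843972-90844221, minus strand. None of the 3 windows holds an annotated exon base.
Col27a1: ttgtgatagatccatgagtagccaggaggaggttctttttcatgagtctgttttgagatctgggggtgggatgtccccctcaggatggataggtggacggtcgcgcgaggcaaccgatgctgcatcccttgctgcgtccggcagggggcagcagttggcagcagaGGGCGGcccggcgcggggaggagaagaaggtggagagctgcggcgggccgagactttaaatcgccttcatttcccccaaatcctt
Col15a1: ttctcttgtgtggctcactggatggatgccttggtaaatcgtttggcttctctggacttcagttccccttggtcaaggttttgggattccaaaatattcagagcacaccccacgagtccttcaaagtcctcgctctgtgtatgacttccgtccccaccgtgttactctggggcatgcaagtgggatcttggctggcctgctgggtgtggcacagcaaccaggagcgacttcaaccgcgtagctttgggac
Col6a3: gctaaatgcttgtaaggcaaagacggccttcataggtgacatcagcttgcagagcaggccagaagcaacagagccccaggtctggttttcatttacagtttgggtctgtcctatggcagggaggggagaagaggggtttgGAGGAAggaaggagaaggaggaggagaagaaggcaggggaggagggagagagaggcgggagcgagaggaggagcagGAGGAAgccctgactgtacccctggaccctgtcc

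Both strands were searched, and no printed window held both motifs, so that no matches overlap there. The Col6a3 window held GAGGAA and no GC box, the Col27a1 window held a GC box and no GAGGAA, and the Col15a1 window held neither. Over all 32851 RefSeq promoter windows of the same length, 23.3% held GAGGAA and 32.7% held GGGCGG. Of the 26 collagen genes with a window, 7 held GAGGAA and 18 held GGGCGG. A match is a description of the letters and not of a bound site.

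Col4a1 and Col4a2, which encode the main chains of basement membrane collagen, stand head to head on chromosome 8, so that 1 stretch lies under the start of both. The 22 bases at chr8:11312805-11312826, given on the plus strand, belong to the first exon of both genes.
Col4a1 and Col4a2 shared start: agtgcgcgggcggcgtctccaa
This stretch also holds GGGCGG, printed here without capitals, and it lies outside the promoter windows of both genes. In those windows, Col4a2 held GGGCGG and Col4a1 held neither motif. Their levels are given with the basement membrane genes.

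The libraries held 12433402 to 17889654 counts. Levels are given in CPM, the count scaled to the TMM-adjusted library size, and 3 counts, taken as the detection floor, were worth 0.169 to 0.227 CPM. Collagens are minor transcripts in this isolate. Their summed level was 615, 615 and 706 CPM in WT veh, 719.8, 673 and 764 CPM in WT BRICHOS, 368, 392 and 416 CPM in App veh, and 341, 319 and 357 CPM in App BRICHOS. All 6 App libraries were below all 6 WT libraries. Microglial marker genes summed to between 24610 and 29850 CPM in the 12 libraries, and none of these markers was absent.

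Levels between genes were compared per kb of exon, which divides CPM by the summed exon length. On this scale Col27a1 led with a mean of 17.9 CPM per kb over the 12 libraries (12.9 to 24.1), Col15a1 followed with 11.4 (8.45 to 14.5) and Col9a3 with 8.25 (2.39 to 23.2). These 3 genes made up between 56.4% and 69.1% of the summed per-kb level of a library. Col4a1 (4.09), Col6a3 (3.91), Col4a2 (3.33), Col8a2 (2.61), Col8a1 (1.496), Col11a2 (1.33), Col18a1 (1.196) and Col9a2 (1.06) came next, and the other 22 genes averaged under 1 CPM per kb. Col27a1 was above Col15a1 in 12 of 12 libraries, although their ranges over the 12 overlapped through the strain difference. Col9a3 overlapped both and passed Col15a1 in 2 libraries, and the order of Col4a1, Col6a3 and Col4a2 changed from library to library. Fibrillar collagens of scar and dermis were low, with Col1a1 at 0.208 and Col3a1 at 0.0734 CPM per kb. Col6a6, with 10 counts in 3 libraries, and Col17a1, in 5, lay just inside the count floor, and Col6a5, in 1, just outside it.

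**Figure D1:**
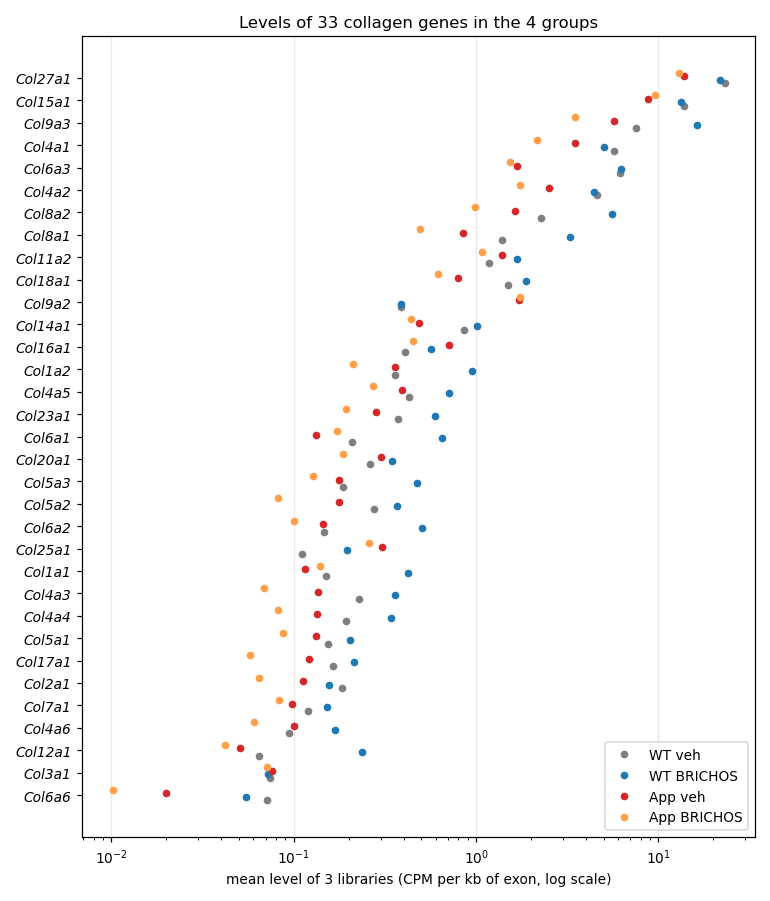
Mean level of each of the 33 collagen genes in the 4 groups of 3 libraries, in CPM per kb of exon on a log scale, with genes ordered by their mean over all 12 libraries. Col27a1 lies at the top in all groups, Col9a3 passes Col15a1 in WT BRICHOS, and for most genes the App BRICHOS point is the lowest and the WT BRICHOS point the highest.

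App veh was first compared with WT veh, which asks how the knock-in alone changed these transcripts. Of the 33 collagen genes, 7 fell and 2 rose at an adjusted p under 0.05, a share of 27.3% against 37.0% of all tested genes (16.9% lower and 20.1% higher). Of the 33 log2 fold changes 8 were above 0, against 47.9% of all tested genes, and 11 genes had no overlap between the groups, against 50.9%. The called share was below that of all tested genes. The median log2 fold change was -0.39, against -0.02 over all tested genes. It was -0.17 without WT veh replicate 3 and -0.61 without WT veh replicate 2. In bulk libraries, fewer cells of a type and less RNA per cell cannot be told apart.

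Col27a1 (chr4:63214004-63334991, plus strand) encodes a fibrillar collagen known from cartilage. Its level was 289, 296 and 314 CPM in WT veh, 291, 281 and 275 CPM in WT BRICHOS, 174, 180.4 and 186 CPM in App veh and 167, 167 and 169 CPM in App BRICHOS. No App library reached a WT library. Its log2 fold change was -0.73 ± 0.05 (SE) in the veh comparison, with an adjusted p of 3.29e-07 (edgeR's quasi-likelihood test).

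Col15a1 (chr4:47208161-47313167, plus strand) encodes a multiplexin, a collagen of the basement membrane zone whose tail can be cut off. The level of Col15a1 was 92.3, 83.7 and 88.2 CPM in WT veh, 86.3, 77.9 and 88.4 CPM in WT BRICHOS, 54.1, 53.6 and 59.4 CPM in App veh and 57.1, 62.3 and 61.8 CPM in App BRICHOS. The strains were separate under both treatments. The fall with veh was -0.66 ± 0.07 on the log2 scale (adjusted p = 1.57e-05). Its sister multiplexin Col18a1, the source of endostatin, missed the threshold with veh at -0.89 ± 0.35 (adjusted p = 0.0645).

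The collagen VI gene Col6a3 (chr1:90765923-90843971, minus strand) showed the largest fall with veh. Col6a3 was at 79.6, 76.3 and 66.1 CPM in WT veh, 77.8, 68.9 and 77.3 CPM in WT BRICHOS, 17.9, 18.0 and 24.2 CPM in App veh and 15.5, 17.3 and 22.1 CPM in App BRICHOS. It was 3.7-fold lower in App veh, a log2 fold change of -1.89 ± 0.14 (adjusted p = 1.62e-06). Its partner chains were scarce: Col6a1 and Col6a2, with which the Col6a3 chain normally assembles, stayed under 1.7 CPM in every WT veh library. The log2 fold changes of Col6a1 and Col6a2 with veh were -0.66 ± 0.50 (adjusted p = 0.332) and -0.04 ± 0.40 (adjusted p = 0.953). Col6a3 passed the test in this comparison and the other 2 chains did not, with wide errors at their low level; the difference between the chains was not tested.

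Col6a6, a further collagen VI chain, held 6, 11 and 12 counts in WT veh and 3, 2 and 3 counts in App veh. It passed the floor through WT libraries only, so that it had to differ between the strains, and its place in the counts of both strain comparisons is a description. The ratio of the summed counts, scaled by depth, was 3.57 (95% exact interval 1.59 to 9.03, counting error only). Its call was lost in 7 of 17 other settings with veh, 5 of them the omission of 1 library (adjusted p up to 0.106), and in 3 of 17 with BRICHOS (adjusted p up to 0.076).

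The pair Col4a1 (chr8:11198423-11312826, minus strand) and Col4a2 (chr8:11312805-11449287, plus strand) fell together. Col4a1 was at 38.2, 47.6 and 41.4 CPM in WT veh, 47.3, 33.2 and 32.6 CPM in WT BRICHOS, 22.9, 33.5 and 21.7 CPM in App veh and 17.4, 13.1 and 17.8 CPM in App BRICHOS. Col4a2 was at 28.7, 33.5 and 29.5 CPM in WT veh, 35.9, 26.9 and 25.1 CPM in WT BRICHOS, 14.4, 21.6 and 13.9 CPM in App veh and 10.5, 9.40 and 14.8 CPM in App BRICHOS. For both genes the highest veh libraries of each strain were replicate 2. With veh the log2 fold change was -0.70 ± 0.19 for Col4a1 (adjusted p = 0.0143) and -0.88 ± 0.20 for Col4a2 (adjusted p = 0.00584). The call for Col4a1 was lost without WT veh replicate 2, App veh replicate 1 or App veh replicate 3 (adjusted p up to 0.0597). The other collagen IV genes, Col4a3 to Col4a6, did not pass.

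Col14a1 (chr15:55307750-55520803, plus strand), whose product sits on fibrils of collagen I, was at 4.72, 6.29 and 7.08 CPM in WT veh, 7.62, 6.03 and 7.498 CPM in WT BRICHOS, 3.69, 3.22 and 3.26 CPM in App veh and 2.001, 3.26 and 3.93 CPM in App BRICHOS. The strains did not overlap. The log2 fold change with veh was -0.83 ± 0.24 (adjusted p = 0.0167). It was lost without WT veh replicate 2, WT veh replicate 3 or App veh replicate 2 (adjusted p up to 0.0625).

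Both genes that rose had other roles. Col9a2 (chr4:121039385-121055322, plus strand) encodes a chain of collagen IX, a fibril-associated collagen of cartilage. Col9a2 was at 1.85, 0.771 and 0.969 CPM in WT veh, 0.882, 0.957 and 1.77 CPM in WT BRICHOS, 5.25, 6.24 and 4.45 CPM in App veh and 5.68, 5.69 and 4.83 CPM in App BRICHOS. It was 4.44-fold higher in App veh (log2 fold change 2.15 ± 0.33, adjusted p = 0.000377). Col9a3, its partner in the collagen IX trimer, did not share the rise (-0.39 ± 0.45, adjusted p = 0.519), and Col9a1 was under the floor.

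Col25a1 (chr3:130131501-130599877, plus strand) encodes a membrane collagen whose shed part, called CLAC, is a known component of amyloid plaques. Its level was 1.64, 1.42 and 1.27 CPM in WT veh, 3.15, 2.82 and 1.66 CPM in WT BRICHOS, 2.72, 3.74 and 5.34 CPM in App veh and 3.03, 3.20 and 3.78 CPM in App BRICHOS. With veh the strains were separate and the log2 fold change was 1.43 ± 0.30 (adjusted p = 0.00316). With BRICHOS they overlapped and the difference was 0.39 ± 0.29 (adjusted p = 0.295). The difference of the 2 strain effects was -1.04 ± 0.42, which did not pass adjustment (unadjusted p = 0.0284, adjusted p = 0.281).

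**Figure D2:**
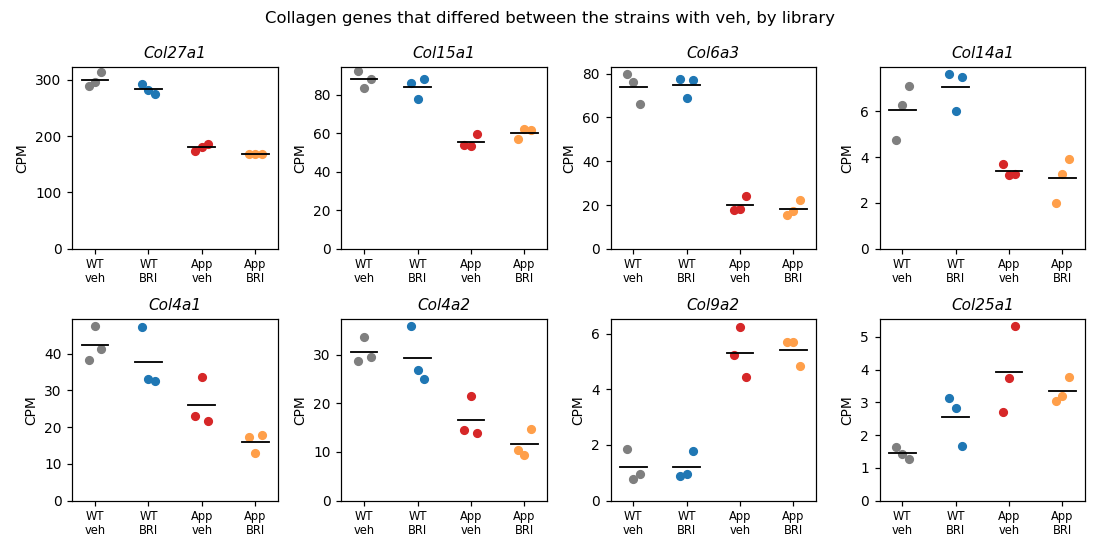
Level in CPM of 8 collagen genes in each library (points) and the group mean (line), with BRICHOS shortened to BRI. Col27a1, Col15a1, Col6a3, Col14a1 and Col4a2 are lower in every App library than in every WT library, and Col9a2 is higher in every App library.

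App BRICHOS was then compared with WT BRICHOS, 2 groups that share no library with the veh comparison. Here 24 of the 33 genes fell and 1 rose, a share of 75.8% against 42.5% of all tested genes (21.8% lower and 20.8% higher). The median log2 fold change was -1.60, against -0.04 over all tested genes. Of the 33 genes 2 were above 0, against 46.1% of all tested genes, and 28 had no overlap between the groups, against 51.7%. Without any 1 of the 12 libraries, between 22 and 26 genes were called.

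Of the 9 genes called with veh, 8 were called again with the same direction, namely Col27a1, Col15a1, Col6a3, Col6a6, Col4a1, Col4a2, Col14a1 and Col9a2. The log2 fold change of Col27a1 was -0.75 ± 0.05, that of Col6a3 -2.03 ± 0.15 and that of Col9a2 2.15 ± 0.32. Col6a6 had 4, 6 and 16 counts in WT BRICHOS and 1, 1 and 2 counts in App BRICHOS. A further 17 genes were called with BRICHOS only.

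By subfamily, all 4 collagen VI genes (Col6a6 included), both short-chain genes (Col8a1 and Col8a2, of the Descemet membrane and vessel wall), both multiplexins, 5 of 6 collagen IV genes and 6 of 9 fibrillar genes fell, as did 3 of 6 fibril-associated genes, 1 of 3 transmembrane genes and Col7a1, the anchoring fibril collagen. Col8a1 had the lowest log2 fold change, -2.73 ± 0.59 (adjusted p = 0.00313), followed by Col8a2 at -2.50 ± 0.63 (adjusted p = 0.00759). Col12a1, a fibril-associated collagen of tendon and fascia, was at -2.47 ± 0.38 (adjusted p = 0.000309). Col3a1, a chain of vessel and skin fibrils, was level at -0.02 ± 0.38 (adjusted p = 0.971). Col16a1, Col20a1, Col11a2, Col2a1, Col4a6, Col17a1 and Col25a1 were the other genes that did not pass.

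The short-chain genes and Col18a1 were well detected in every WT BRICHOS library. Col8a1 lay between 20.8 and 33.9 CPM in WT BRICHOS and between 3.07 and 5.14 CPM in App BRICHOS, and Col8a2 between 17.5 and 35.7 CPM and between 2.37 and 6.33 CPM. Col18a1, with 10.5 to 14.7 CPM in WT BRICHOS and 2.71 to 7.18 CPM in App BRICHOS, had a log2 fold change of -1.63 ± 0.35 (adjusted p = 0.00335). The 3 genes had no overlap between the groups.

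The minor collagen IV chains of specialised basement membranes were at a lower level. Col4a3 lay between 2.14 and 4.58 CPM in WT BRICHOS and between 0.452 and 0.906 CPM in App BRICHOS (log2 fold change -2.37 ± 0.57, adjusted p = 0.00608). Col4a4, its neighbour on chromosome 1, lay between 2.82 and 4.92 CPM and between 0.710 and 1.13 CPM (-2.05 ± 0.58, adjusted p = 0.0145). Col4a5 lay between 4.47 and 5.38 CPM and between 1.61 and 2.12 CPM (-1.40 ± 0.31, adjusted p = 0.00396). All 3 fell, as the main pair Col4a1 and Col4a2 did (-1.23 ± 0.20 and -1.34 ± 0.21).

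**Figure D3:**
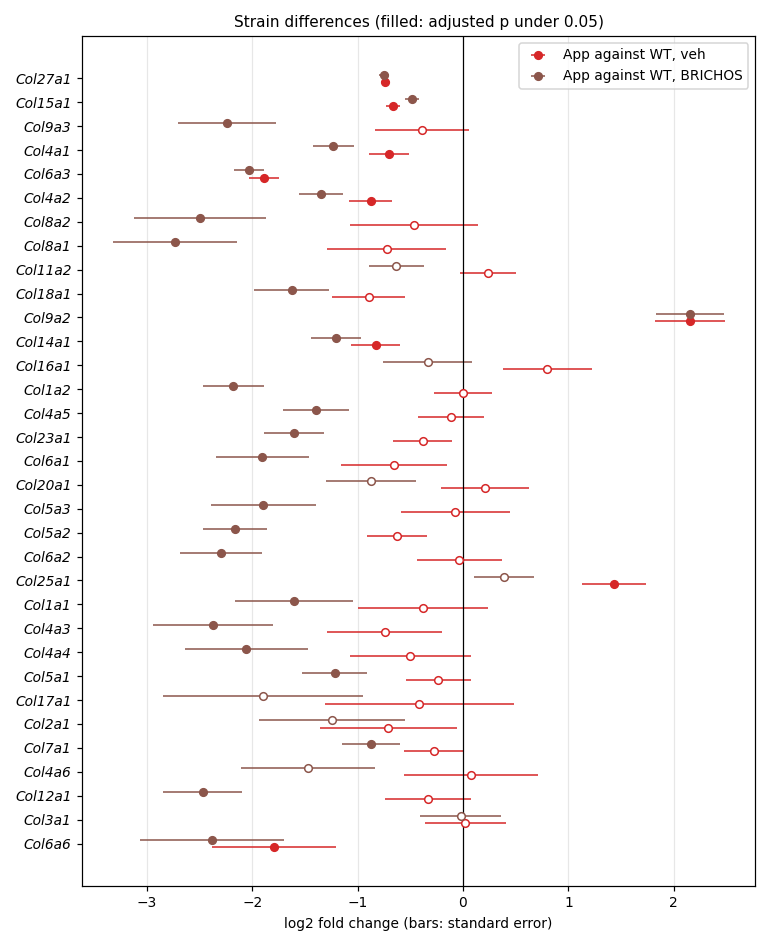
Log2 fold change of App against WT for 33 collagen genes with veh and with BRICHOS, with standard errors as bars and genes ordered by level; filled points passed an adjusted p under 0.05. Most brown points (BRICHOS) lie to the left of the red points (veh), whereas Col27a1, Col6a3 and Col9a2 have nearly the same value in both.

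Markers of other cells moved with this comparison. With BRICHOS, all 10 choroid plexus markers were called lower in App, and their sum ran from 3384 to 6981 CPM in WT BRICHOS against 669.6 to 1011 CPM in App BRICHOS. The fibroblast and meningeal list (9 of 10 lower) summed to 68.5 to 79.3 against 18.8 to 27.6 CPM. The pericyte list (9 of 10 lower) summed to 251 to 336 against 87.1 to 146 CPM. These lists were lower in the same libraries as the collagens.

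The smooth muscle list (all 7 tested genes lower) summed to 94.1 to 114 against 22.6 to 48.6 CPM, and the endothelial list (9 of 10 lower) to 639 to 912.5 against 427 to 491 CPM. The ependymal list (7 of 8 tested genes lower) summed to 29.7 to 58.8 against 12.9 to 15.1 CPM. None of the listed markers was at 0 in every library. The part of these cells in the collagen differences was not tested.

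With veh the same lists gave other counts. Of the choroid plexus markers none of 10 was called, with 892 to 4085 CPM in WT veh and 663 to 2053 CPM in App veh. Of the fibroblast and meningeal markers 1 of 10 was called lower (30.25 to 55.0 against 32.4 to 35.9 CPM), and of the pericyte markers 1 was called higher and none lower (223 to 249.7 against 146 to 212 CPM). Of the smooth muscle markers 4 of 7 were called lower (66.0 to 90.0 against 35.7 to 53.2 CPM), of the endothelial markers 9 of 10 (746 to 834 against 518 to 705 CPM), and of the ependymal markers none of 8 (17.3 to 23.6 against 12.4 to 16.7 CPM). The endothelial, smooth muscle, pericyte and ependymal sums were lower in every App veh library than in every WT veh library. Col4a1 and Col4a2 were too, and the part of these cells was not tested.

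Glial and neuronal lists were also compared. Of the 8 microglial markers, 2 were called higher and 6 lower in App with veh, and 2 higher and 5 lower with BRICHOS. Astrocyte markers were called higher for 9 of 10 genes in App veh, at 449.9 to 638 CPM in WT veh and 1469 to 4715 CPM in App veh. They were called for 1 gene in each direction with BRICHOS, at 451 to 864 CPM in WT BRICHOS and 678 to 1973 CPM in App BRICHOS. Oligodendrocyte precursor markers summed to 17.3 to 20.7, 21.3 to 78.5, 89.7 to 127 and 102 to 148 CPM in WT veh, WT BRICHOS, App veh and App BRICHOS. As for Col9a2, this sum was higher in every App library than in every WT library. With BRICHOS, however, 5 of the 6 listed precursor markers were lower in App and 1 was higher.

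Of the 6 precursor markers, 1 was called higher with veh, and 1 higher and 4 lower with BRICHOS. Oligodendrocyte markers were called lower for 2 of 8 genes with veh and for none with BRICHOS, and neuronal markers for 6 and 7 of 9 tested genes. The part of these cells in the Col9a2 and Col25a1 differences was not tested.

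The treatment was then compared within each strain, the question being what BRICHOS changed. In WT, no collagen gene passed an adjusted p under 0.05 in edgeR, nor did any of the 15425 genes tested. At an unadjusted p under 0.05, 12 of the 33 collagen genes were higher in WT BRICHOS and none was lower, a share of 36.4% against 11.4% of all tested genes (6.55% higher and 4.83% lower). The 12 were Col1a1, Col1a2, Col4a5, Col5a3, Col6a1, Col6a2, Col8a1, Col8a2, Col9a3, Col12a1, Col23a1 and Col25a1. With a log2 fold change over 1 in addition, 9 of them were left, without Col4a5, Col23a1 and Col25a1, against 392 of all 15425 tested genes. DESeq2's Wald test called 3 at an adjusted p under 0.05, namely Col1a2, Col6a2 and Col12a1, against 80 of all 15425 tested genes. Of the 33, 26 were above 0, against 49.1% of all tested genes, 10 had no overlap between the groups, against 17.5%, and the median log2 fold change was 0.48, against 0.00 over all tested genes.

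Col1a2 (chr6:4504814-4541544, plus strand) encodes a chain of collagen I, the main fibre protein of connective tissue. Its level was 3.22, 4.39 and 5.81 CPM in WT veh, 9.38, 12.1 and 13.9 CPM in WT BRICHOS, 3.63, 6.04 and 3.71 CPM in App veh and 2.65, 1.85 and 3.32 CPM in App BRICHOS. All WT BRICHOS libraries stood above every other library. In WT the log2 fold change was 1.40 ± 0.28 (unadjusted p = 0.000335, adjusted p = 0.19).

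Col12a1 (chr9:79598991-79718831, minus strand) was at 1.16, 0.593 and 1.19 CPM in WT veh, 2.83, 4.28 and 3.72 CPM in WT BRICHOS, 0.777, 0.788 and 0.741 CPM in App veh and 1.03, 0.576 and 0.302 CPM in App BRICHOS. As for Col1a2, the WT BRICHOS libraries were apart from all the others. The log2 fold change of Col12a1 in WT, 1.89 ± 0.36, was the largest of the 33 (unadjusted p = 0.000237, adjusted p = 0.182).

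The collagen VI chains Col6a1 (chr10:76708792-76726168, minus strand) and Col6a2 (chr10:76595762-76623630, minus strand) followed the same order. Col6a1 was at 1.23, 0.474 and 1.04 CPM in WT veh, 2.39, 3.44 and 2.75 CPM in WT BRICHOS, 0.259, 0.591 and 0.889 CPM in App veh and 1.16, 0.640 and 0.453 CPM in App BRICHOS. Col6a2 was at 0.822, 1.66 and 1.19 CPM in WT veh, 4.03, 5.07 and 3.49 CPM in WT BRICHOS, 0.777, 1.51 and 1.33 CPM in App veh and 1.36, 0.704 and 0.453 CPM in App BRICHOS. In WT the log2 fold changes were 1.65 ± 0.43 (adjusted p = 0.243) and 1.76 ± 0.37 (adjusted p = 0.196). Col6a3, the collagen VI gene with the highest level, was at 0.01 ± 0.14 (adjusted p = 0.985).

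Col5a3 (chr9:20770050-20815067, minus strand), a minor fibril-regulating chain, was at 1.64, 1.13 and 1.04 CPM in WT veh, 1.70, 2.93 and 5.04 CPM in WT BRICHOS, 1.55, 1.38 and 0.667 CPM in App veh and 1.16, 0.320 and 1.13 CPM in App BRICHOS. The lowest WT BRICHOS library lay just above the highest WT veh library. Its log2 fold change in WT was 1.34 ± 0.48 (unadjusted p = 0.0168, adjusted p = 0.328).

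Col23a1 (chr11:51289920-51583918, plus strand), a membrane collagen, was at 2.12, 1.54 and 2.76 CPM in WT veh, 3.78, 3.55 and 2.86 CPM in WT BRICHOS, 1.68, 1.57 and 1.63 CPM in App veh and 1.29, 1.34 and 0.680 CPM in App BRICHOS. The groups did not overlap within either strain, with BRICHOS above veh in WT and below it in App. The log2 fold change in WT was 0.67 ± 0.27 (unadjusted p = 0.028, adjusted p = 0.389).

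Col9a3 (chr2:180597790-180622189, plus strand) was at 18.6, 15.6 and 52.3 CPM in WT veh, 47.3, 52.4 and 89.4 CPM in WT BRICHOS, 17.5, 16.6 and 31.6 CPM in App veh and 14.5, 9.21 and 16.5 CPM in App BRICHOS. Its replicate 3 was the highest library in each group. WT veh replicate 3 was also far above replicates 1 and 2 for Col8a1 (22.1 against 5.89 and 4.80 CPM) and Col8a2 (21.2 against 4.52 and 4.75 CPM), and its choroid plexus marker sum was 4085 CPM against 939.9 and 892 CPM.

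With all libraries, the log2 fold changes of Col9a3, Col8a1 and Col8a2 in WT were 1.14 ± 0.44, 1.24 ± 0.54 and 1.31 ± 0.59. Without WT veh replicate 3 they were 1.88, 2.25 and 2.43. Other single omissions lowered them, Col9a3 to 0.80 without WT BRICHOS replicate 3 (unadjusted p = 0.11), Col8a1 to 0.87 without WT veh replicate 2 (unadjusted p = 0.144) and Col8a2 to 0.95 without WT veh replicate 1 (unadjusted p = 0.15). Their unadjusted p missed 0.05 in 4, 7 and 9 of 20 other settings. The part of choroid plexus cells was not tested.

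Between WT BRICHOS and WT veh no listed marker passed adjustment. At an unadjusted p under 0.05, 7 of 10 fibroblast and meningeal, 7 of 8 ependymal, 5 of 6 oligodendrocyte precursor, 4 of 10 choroid plexus, 1 of 10 pericyte, 1 of 7 smooth muscle and none of 10 endothelial markers were higher in WT BRICHOS. The part of these cells in the WT values was not tested. The count of 12 collagen genes became 5 without WT veh replicate 2 and 7 without WT BRICHOS replicate 3.

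In App, no collagen gene passed adjustment in edgeR, where 0.00648% of all tested genes did (1 gene). None passed in DESeq2's Wald test either, where 119 of all tested genes did on all libraries and 48 on the compared groups. At an unadjusted p under 0.05, 5 of the 33 were lower in App BRICHOS and none was higher, a share of 15.2% against 10.8% of all tested genes (7.67% lower and 3.18% higher). Of the 33, 4 were above 0, against 52.0% of all tested genes, 8 had no overlap between the groups, against 13.5%, and the median log2 fold change was -0.53, against 0.01 over all tested genes. The 5 were Col1a2, Col4a1, Col4a2, Col5a2 and Col27a1, and with a log2 fold change over 1 in addition 1 was left.

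Col5a2 (chr1:45374321-45503282, minus strand), a chain of the collagen V that starts collagen I fibrils, was at 2.53, 2.73 and 2.68 CPM in WT veh, 4.22, 2.59 and 3.84 CPM in WT BRICHOS, 1.75, 1.97 and 1.41 CPM in App veh and 1.16, 0.512 and 0.680 CPM in App BRICHOS. The treated App libraries were the lowest of all. Its log2 fold change in App was -1.11 ± 0.32 (unadjusted p = 0.00473, adjusted p = 0.294).

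The basement membrane pair, Col4a1 and Col4a2, changed by -0.70 ± 0.20 (unadjusted p = 0.00471, adjusted p = 0.294) and -0.53 ± 0.21 (unadjusted p = 0.0278, adjusted p = 0.385). Col4a1 had no overlap between App veh and App BRICHOS, whereas for Col4a2 App BRICHOS replicate 3 lay above App veh replicates 1 and 3. Col1a2 was at -0.78 ± 0.30 (unadjusted p = 0.0236, adjusted p = 0.373). Without App veh replicate 2, Col4a2 was at -0.30 (unadjusted p = 0.165) and Col1a2 at -0.50 (unadjusted p = 0.13). Col4a2 missed 0.05 in 4 of 20 other settings, among them the omission of App BRICHOS replicate 1 or 2, and Col1a2 in 2 of 20, App BRICHOS replicate 2 being the other omission. The value for Col27a1, -0.10 ± 0.05, was small, and its unadjusted p of 0.0493 passed 0.05 in only 2 of 20 other settings. Of the astrocyte markers 10 of 10, of the endothelial markers 9 of 10, of the pericyte markers 5 of 10, of the smooth muscle markers 2 of 7, of the fibroblast and meningeal markers 3 of 10 and of the choroid plexus markers none of 10 were lower at an unadjusted p under 0.05. Their part in these values was not tested.

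The count of 5 became 2 without App veh replicate 2 or App BRICHOS replicate 2, and 8 without App BRICHOS replicate 1.

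**Figure D4:**
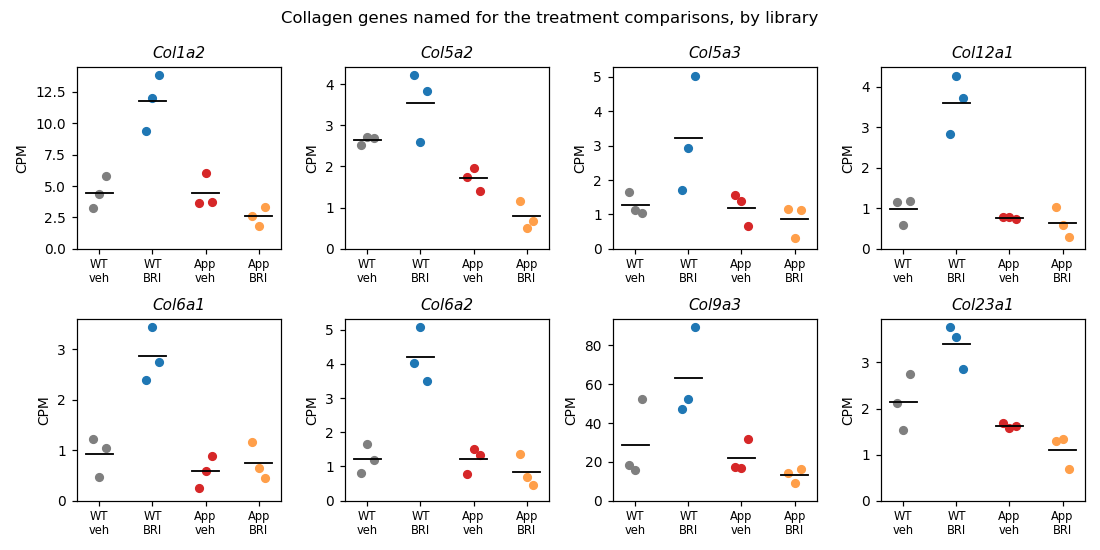
Level in CPM of 8 collagen genes in each library (points) and the group mean (line), with BRICHOS shortened to BRI. For Col1a2, Col12a1, Col6a1 and Col6a2 the 3 WT BRICHOS libraries lie above all other libraries, and for Col9a3 WT veh replicate 3 lies within the WT BRICHOS range.

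The difference of the treatment effects, App minus WT, was tested directly in the same fit. No collagen gene passed adjustment in edgeR, where 0.00648% of all tested genes did. At an unadjusted p under 0.05, 13 of 33 passed, all with a lower effect in App, a share of 39.4% against 14.8% of all tested genes (9.54% lower and 5.23% higher). Of the 33 differences 2 were above 0, against 52.1% of all tested genes. DESeq2's Wald test on all libraries called 2, Col1a2 and Col6a2, at an adjusted p under 0.05. That test also called many more of all tested genes than edgeR did, so edgeR's share is not the background for these 2. The median difference was -1.14, against 0.01 over all tested genes. The lowest values were -2.26 ± 0.56 for Col6a2 (unadjusted p = 0.00183, adjusted p = 0.158) and -2.18 ± 0.41 for Col1a2 (unadjusted p = 0.000206, adjusted p = 0.151).

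Col12a1 was at -2.13 ± 0.56 (unadjusted p = 0.00267), Col5a2 at -1.53 ± 0.42 (unadjusted p = 0.00339) and Col23a1 at -1.22 ± 0.40 (unadjusted p = 0.0111). Col27a1 (-0.02 ± 0.07), Col9a2 (0.00 ± 0.50), Col6a3 (-0.14 ± 0.20) and Col15a1 (0.18 ± 0.09), all called between the strains under both treatments, did not pass even unadjusted. The standard error was narrow for Col27a1 and wide for Col9a2. The count of 13 became 7 without WT veh replicate 2 or App BRICHOS replicate 2, and 8 without WT BRICHOS replicate 3.

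Markers of other cells moved with the difference too. At an unadjusted p under 0.05, 9 of 10 astrocyte, 7 of 10 fibroblast and meningeal, 7 of 10 choroid plexus, 6 of 10 endothelial, 5 of 10 pericyte, 5 of 6 oligodendrocyte precursor, 4 of 8 ependymal and 3 of 7 smooth muscle markers had a lower treatment effect in App, and none of these a higher one. Their part in the collagen values was not tested.

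**Figure D5:**
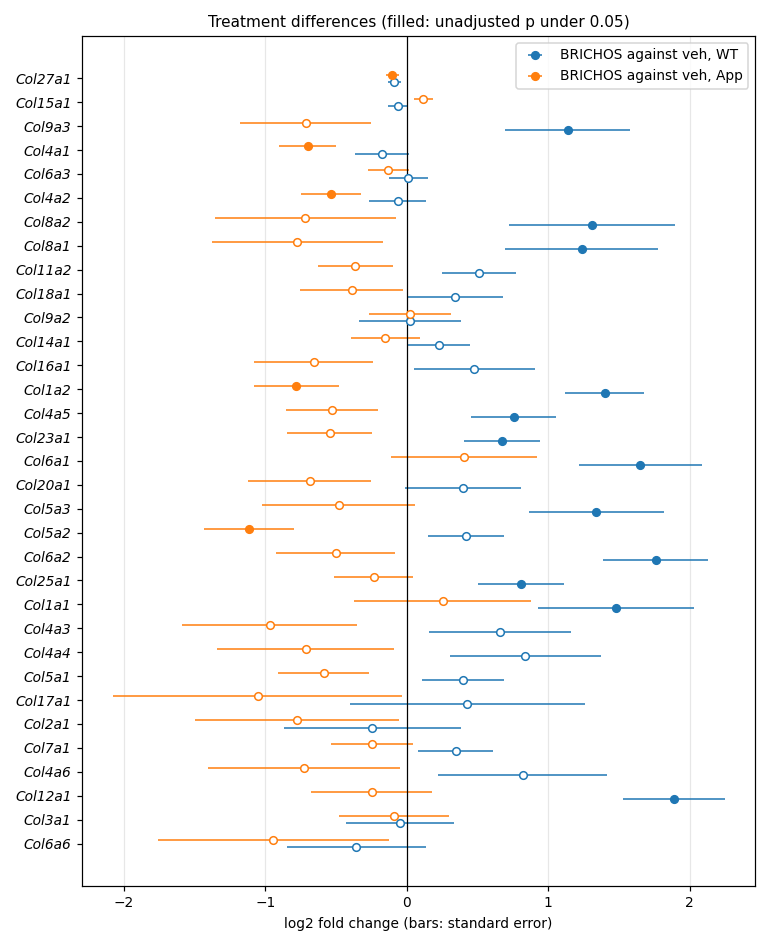
Log2 fold change of BRICHOS against veh for 33 collagen genes in WT and in App, with standard errors as bars and genes ordered by level; filled points passed an unadjusted p under 0.05, and none passed adjustment. Most WT points lie to the right of 0 (26 of 33) and most App points to the left (29 of 33).

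Genes that make, bind and accompany collagen were read from fixed lists, whose counts stand against 20.1% higher and 16.9% lower of all tested genes with veh and 20.8% higher and 21.8% lower with BRICHOS. Of 29 tested genes for collagen synthesis and cross-linking, 11 rose and 3 fell in App veh, and 9 rose and 10 fell in App BRICHOS against WT BRICHOS. Lox, the lysyl oxidase that starts cross-links, went from 2.71 ± 0.63 CPM (SD, n = 3) in WT veh to 60.6 ± 9.0 CPM in App veh, a log2 fold change of 4.49 ± 0.19 (SE, adjusted p = 1.93e-08). With BRICHOS the log2 fold change of Lox between the strains was 4.33 ± 0.19 (adjusted p = 1.67e-08).

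P4ha3, a prolyl hydroxylase subunit, rose by 2.78 ± 0.56 on the log2 scale with veh, Fkbp10, a collagen chaperone, by 1.29 ± 0.30, and Loxl1, a lysyl oxidase of elastic fibres, by 1.26 ± 0.45. P4ha3 was near the 3-count floor in WT veh, at 0.273 ± 0.085 CPM, and at 1.89 ± 0.69 CPM in App veh (SD, n = 3). With BRICHOS, Loxl1 (-1.90 ± 0.42) and Pcolce, an enhancer of procollagen cleavage (-2.22 ± 0.49), were lower in App. Loxl2 was at 0.982 ± 0.085 CPM in WT BRICHOS and, under the 3-count floor, at 0.118 ± 0.094 CPM in App BRICHOS (SD, n = 3).

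Of 9 tested collagen receptors and uptake genes, 1 rose and 2 fell with veh, a share below the 37.0% of all tested genes, and 2 rose and 4 fell with BRICHOS, against 42.5%. The endocytic receptors moved in opposite directions with veh. Mrc2, the uptake receptor for cleaved collagen, went from 112 ± 2.9 to 246 ± 37 CPM (SD, n = 3) a log2 fold change of 1.14 ± 0.12 (SE, adjusted p = 2.70e-05). Mrc1, the mannose receptor of border macrophages, went from 214 ± 18 to 96.7 ± 13.2 CPM (log2 fold change -1.15 ± 0.14, adjusted p = 8.01e-05). Itga1, a collagen-binding integrin, fell in both comparisons (log2 fold change -0.75 ± 0.20 with veh, adjusted p = 0.0138, and -1.53 ± 0.21 with BRICHOS, adjusted p = 0.000146).

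Of 14 tested partners of collagen IV in the basement membrane, 3 rose and 4 fell with veh, and 9 fell with BRICHOS. Hspg2, the perlecan core, had 24.9 ± 1.1 CPM in WT veh, 28.6 ± 5.0 in WT BRICHOS, 16.3 ± 1.2 in App veh and 9.39 ± 0.38 in App BRICHOS (SD, n = 3). Its log2 fold change between the strains was -0.61 ± 0.11 with veh (adjusted p = 0.00155) and -1.60 ± 0.12 with BRICHOS (adjusted p = 1.05e-06), and that of BRICHOS against veh in App was -0.80 ± 0.12 (unadjusted p = 3.00e-05, adjusted p = 0.144). Like Col4a1 and Col4a2, Hspg2 had its lowest mean in App BRICHOS. Nid2, which links laminin to collagen IV, had a log2 fold change of -0.80 ± 0.12 with veh (adjusted p = 0.000333).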

How the data were processed

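CD11b-positive microglia of 12 mice (4 groups of 3) were sequenced with stranded mRNA libraries. The authors deposited raw whole-number counts per gene; per the submitters' processing notes, reads were aligned to GRCm38 with STAR 2.6.1d and counted with featureCounts 1.5.1, while the study's methods give another STAR version. The strand setting and the treatment of multi-mapping reads are not given in the sources used here. Without strand, collagen genes whose exons overlap a gene on the opposite strand could share reads with it. Col4a1 and Col4a2 share 22 exon bases, Col9a3 shares 234 with Tcfl5, and Col4a3 shares 563 with C430014B12Rik. Col5a1 shares 212 with 2810430I11Rik and Gm13372. On the same strand, where a strand setting does not help, Col3a1 shares 141 exon bases with Gm47302. Col20a1 shares 79 with BX649560.1 and Col7a1 shares 36 with Mir711.

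Here symbols and exon lengths came from the GENCODE annotation of GRCm38. All 12 libraries entered 1 edgeR 4.0.16 fit (R 4.3.3; glmQLFit and glmQLFTest, TMM, filterByExpr by group) with a mean per group, which left 15425 genes. p-values were two-sided and Benjamini-Hochberg adjusted over all of them, and standard errors were the log2 fold change divided by the square root of F. The fit was tested on simulated data. Alternatives (DESeq2 1.42.0, other filters and size factors, a replicate block, each library left out) were run for all 5 comparisons. Counting intervals are exact binomial and cover counting error only. Values in every library are given for members by a fixed rule (lowest adjusted p, the 5 lowest unadjusted p for the treatment tests, the 3 highest levels per kb, Col4a1, Col4a2 and Col25a1). Members and lists were chosen with earlier results of these data known. Replicate numbers only name the libraries. Pairs of libraries with the same number gave correlations of -0.0148 to 0.227 and none of the comparisons had every pair over 0.1. Libraries came from separate mice and no 2 agreed within counting noise (chi-square per degree of freedom 5.54 to 33.2).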

Additional observations from a re-analysis of the deposited data

Results flagged for a closer look

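Col1a2 and Col23a1 drew attention because BRICHOS and veh libraries did not overlap in either strain and lay in opposite directions. For Col1a2 the log2 difference of the treatment effects was -2.18 ± 0.41 (unadjusted p = 0.000206, adjusted p = 0.151 in edgeR), with 3 of 3 libraries higher in WT and 3 of 3 lower in App. For Col23a1 it was -1.22 ± 0.40 (unadjusted p = 0.0111, adjusted p = 0.224), with the same counts. Neither passed adjustment over all genes tested. Both were picked for opposite directions in the same libraries, so the values of the difference are a description. The Col23a1 change in App did not pass on its own (unadjusted p = 0.096), and its change in WT missed an unadjusted p of 0.05 in 5 of 19 other settings.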

How the results depend on the processing

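No collagen value that passed its threshold reversed its sign in the settings run, and single genes that missed it were not followed across settings. With a log2 fold change over 1 required in addition, 4 genes were called between the strains with veh and 1 passed the unadjusted p for the treatment in App. Without a filter on low counts, 1 gene was called for the treatment in WT and 1 for the difference of the effects. Of all 29173 genes then tested, 12 and 107 were called. With at least 10 counts in every library, 18 collagen genes were left, of which 15 were called between the strains with BRICHOS, 6 passed the unadjusted p in WT and 7 passed it for the difference. DESeq2's Wald test on all libraries called 3 for the treatment in WT and 2 for the difference, and on the compared groups alone it called 3 in WT, with 7 at the unadjusted p. The replicate block, which had no basis in the labels beyond shared numbers, gave 10 and 26 calls between the strains with veh and BRICHOS, and 14, 5 and 16 genes at the unadjusted p for the treatment in WT, in App and for the difference. Leaving out 1 library at a time gave 6 to 10 and 22 to 26 calls between the strains, 5 to 13, 2 to 8 and 7 to 14 genes at the unadjusted p in WT, in App and for the difference, and adjusted calls of 0, 0 and 0 to 2. The 2 came without WT veh replicate 3 and 1 came without App veh replicate 3. The cause of these changes was not tested. DESeq2's size factors kept every one of these counts within 1.5 times. Low depth limits the members under 1 CPM, where a few counts set the value.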

Other observations

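Col4a3bp, the ceramide transfer protein gene that matches the symbol rule without being a collagen, was lower in App, with log2 fold changes of -0.30 ± 0.07 with veh (adjusted p = 0.00392) and -0.27 ± 0.07 with BRICHOS (adjusted p = 0.00602). It showed no treatment effect past a threshold in either strain (log2 fold change -0.06 ± 0.07 in WT and -0.03 ± 0.07 in App).

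Among 10 proteases and inhibitors of collagen breakdown, 4 rose and 4 fell in App veh against WT veh, where 20.1% of all tested genes rose and 16.9% fell, and 2 rose and 5 fell with BRICHOS, where 20.8% rose and 21.8% fell. Timp2, an inhibitor, was at 586 ± 21 CPM in WT veh, 550.2 ± 34.5 in WT BRICHOS, 1319 ± 84 in App veh and 1473 ± 75 in App BRICHOS (SD, n = 3). Mmp9, a gelatinase of neutrophils, was lower in App, with log2 fold changes of -1.80 ± 0.37 with veh (adjusted p = 0.00271) and -2.24 ± 0.37 with BRICHOS (adjusted p = 0.000539). Timp4 rose by 2.14 ± 0.50 with veh (adjusted p = 0.00622). Its level was 3.28 ± 1.31 CPM in WT veh, 4.88 ± 2.47 in WT BRICHOS, 14.4 ± 7.0 in App veh and 4.45 ± 1.69 in App BRICHOS (SD, n = 3). The log2 fold change of BRICHOS against veh in App was -1.69 ± 0.49 (unadjusted p = 0.00514, adjusted p = 0.294).

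Among 12 partners of fibrillar matrix, Postn, periostin, rose by 2.55 ± 0.16 with veh (adjusted p = 3.15e-07) and by 2.74 ± 0.16 with BRICHOS (adjusted p = 1.70e-07), while 4 others fell with veh and 8 with BRICHOS, against the same shares of all tested genes. Among the latter were Fmod (-2.53 ± 0.43), Fbn1 (-2.21 ± 0.40) and Ogn (-2.17 ± 0.31), all known from fibroblasts.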
